A study of Drosophila melanogaster with 2 samples.

Results

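The genes described here are 10 genes of the Drosophila DNA damage response (mei-41, tefu, nbs, lok, grp, p53, Irbp, okr, spn-B and Brca2), out of 18164 annotated genes. They were taken by name, with earlier results of these data known, and all 10 matched the annotation. The data are chromatin immunoprecipitation sequencing (ChIP-seq) peaks of CG14711, a zinc finger protein, in whole adult females of unstated age. The animals belong to a stable transgenic line in which CG14711 carries GFP at its C terminus, and chromatin was pulled down with an antibody against GFP. The series has 1 group of 2 samples, labelled biological replicates 3 and 4 and drawn from separate biosamples. Whole animals mix all tissues, so a peak cannot be assigned to a cell type.

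A list was called on each replicate and another on both pooled, with 30000 peaks each, and a further list holds 5654 peaks kept by the irreproducible discovery rate (IDR), a filter on how repeatable peaks are between replicates. All 5654 IDR peaks are the pooled peaks of highest signal, so a pooled rank of 5654 or better is also the rank in the IDR list. Membership of the IDR list is thus the same as a cutoff on pooled signal. It does not show that a given peak was found in each replicate. The signal is the authors' value for a peak. Its scale differs between lists, and ranks (1 for the strongest peak) are used to set replicates side by side. The lists of 30000 also hold weak calls. Of the pooled peaks, 7049 had the maximum deposited −log10 q value, 4.15, and a grp summit of rank 28629 had 0.685. The lists carry no read counts, so sequencing depth is unknown. Positions are in dm6.

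The DNA damage response detects breaks and stalled forks, halts the cell cycle and directs repair. A pair of large kinases senses the damage, ATR (mei-41) at single-stranded DNA and ATM (tefu) at broken ends, the latter with the MRN complex that contains nbs. They act through the checkpoint kinases Chk1 (grp) and Chk2 (lok), and Chk2 activates the transcription factor p53. Breaks are rejoined directly with the Ku heterodimer (Irbp) or copied from a homologous template by recombination (okr, spn-B, Brca2). In the fly ovary the recombination genes also serve the repair of programmed meiotic breaks.

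Sequence at the summit, the highest point of a peak, is shown for 5 of the 8 genes with an IDR promoter peak. Those of Irbp, mei-41, spn-B and nbs are shown for their low GC content, and that of p53 for a repeated word. Each runs 5′ to 3′ on the coding strand of the named gene and covers 50 bp to either side of the summit, in RefSeq's copy of the assembly. The p53 sequence stops at the transcription start site (TSS). Capitals mark exact matches to TATAAA (the word of the TATA box) or TATCGATA (the DNA replication-related element, DRE).
Irbp, chr3R:11409895-11409995, plus strand: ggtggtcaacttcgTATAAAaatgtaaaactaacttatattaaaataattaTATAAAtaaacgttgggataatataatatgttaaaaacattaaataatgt
mei-41, chrX:16391507-16391607, plus strand: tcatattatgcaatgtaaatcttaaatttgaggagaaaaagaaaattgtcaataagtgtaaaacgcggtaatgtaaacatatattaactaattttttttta
spn-B, chr3R:14327882-14327982, plus strand: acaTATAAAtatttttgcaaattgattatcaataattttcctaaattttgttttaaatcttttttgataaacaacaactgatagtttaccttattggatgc
nbs, chr3L:9723232-9723332, minus strand: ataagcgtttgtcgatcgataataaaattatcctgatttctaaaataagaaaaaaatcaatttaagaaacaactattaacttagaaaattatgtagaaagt
p53, chr3R:23054083-23054152, minus strand: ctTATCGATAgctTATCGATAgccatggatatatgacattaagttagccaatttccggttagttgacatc

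The promoters of 8 of the 10 genes carried an IDR peak, that is, a summit within 500 bp of one of their TSSs. Only tefu and okr did not, and both had a weaker pooled peak there. Among all 13945 protein-coding genes the share with an IDR promoter peak was 30.7%, and the share with a pooled promoter peak was 60.9%, against 10 of 10 here. The 10 genes lie close to other genes: each had a TSS of another gene within 1000 bp of one of its own, which holds for 48.2% of protein-coding genes. Among protein-coding genes with such a neighbour, 45.8% had an IDR promoter peak. No test was made of these counts, because the genes were chosen with earlier results of these data known. The 8 peaks had a median signal of 264 against 268 for all 3619 IDR promoter peaks: Irbp and mei-41 stood at 1215 and 675, and the other 6 between 198 and 284.

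Of the 8 peaks, 5 lay at promoters shared with a gene that runs the other way. These were mei-41, Irbp, Brca2 and nbs, whose summits sat between the pair of start sites, and lok, whose summit sat inside the partner gene. No other gene had a TSS within 500 bp of the summits of spn-B, p53 and grp. Of the 4276 protein-coding genes with an IDR promoter peak, 56.7% had an opposite-strand gene's TSS within 500 bp of the summit of their strongest one, a share close to 5 of 8. For 4 of the 8 (mei-41, Irbp, Brca2 and lok) the nearest TSS to the summit was the partner's, and for the other 4 it was the gene's own. Another gene's TSS was the nearer one for 28.5% of the 4276 genes. Of these 4276, 1195 had no other gene's TSS within 1000 bp of their own, whereas all 8 had one. The shares are therefore not matched for close neighbours. Every one of the 8 IDR summits lay upstream of the nearest TSS of its gene, by 20 to 357 bp, as did 84% over the 4276 genes. A shared peak cannot be assigned to either gene from its position.

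**Figure D1:**
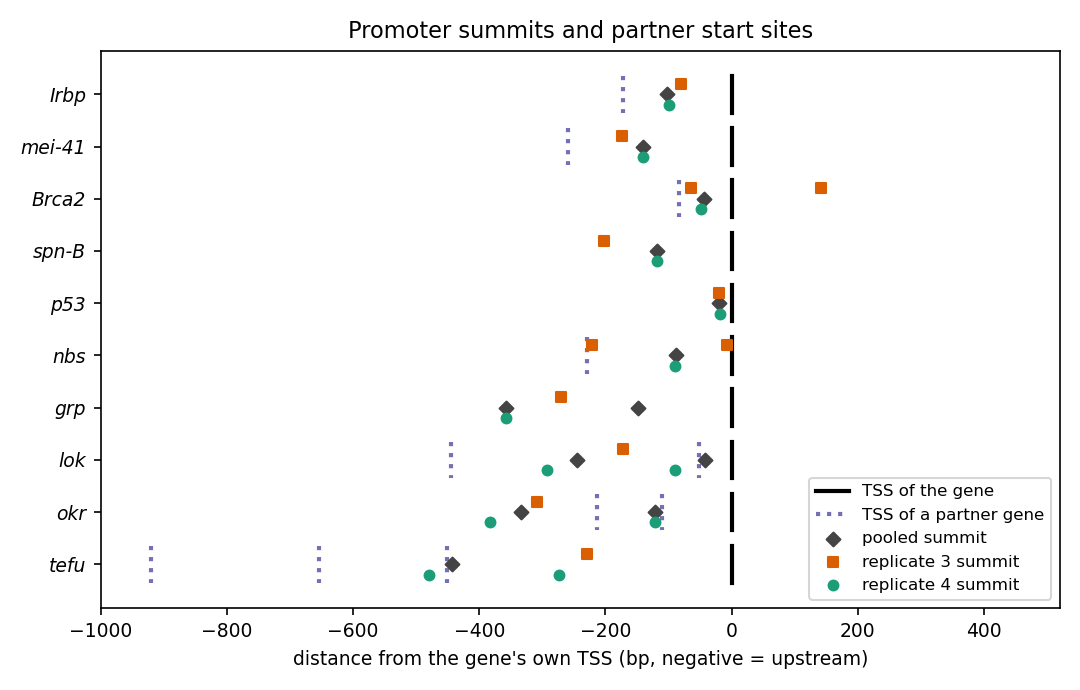
Distance in bp of summits in the pooled list and both replicate lists from 1 TSS per gene, the one nearest to its strongest pooled summit, for summits within 500 bp of that TSS (other TSSs of grp and p53 are not drawn); solid bars mark that TSS and dotted bars the TSSs of partner genes within 500 bp of the strongest pooled summit. The summits of Irbp, mei-41 and Brca2 lie between the pair of start sites in all 3 lists, apart from 1 weak replicate 3 summit 142 bp inside Brca2.

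Of the sensor kinases, mei-41 had a strong peak and tefu a weaker one, which still had the maximum −log10 q value of 4.15. The mei-41 gene (FBgn0004367, X, 16391698 to 16399850, plus strand) had its summit at 16391557, in intergenic sequence 141 bp upstream of its TSS. The summit was 119 bp from the TSS of TH1, which encodes a subunit of the negative elongation factor NELF and starts 260 bp from mei-41 in the opposite direction. The signal was 675 in the pooled list (rank 856), 192 in replicate 3 (rank 1111) and 487 in replicate 4 (rank 796). Both replicates thus placed it near the top of their lists, among the best 3.70% and 2.65% of peaks. The tefu gene (FBgn0045035, 3R, 15232212 to 15242236, minus strand) had a pooled summit at 15242679 with a signal of 126 and rank 6776, outside the IDR list. It lay 443 bp upstream of the tefu TSS but 8 bp from a TSS of Hsc70-4, a constitutive heat shock cognate chaperone gene.

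The replicates differed at tefu. In replicate 4 the strongest summit was 273 bp upstream of the tefu TSS with a signal of 141 and rank 3566, and a second one lay 480 bp upstream at rank 8414. In replicate 3 the only summit in the window was 229 bp upstream, away from the pooled one, with a signal of 38.1 and rank 10991. The replicate 4 peak was within the best 5654 of its list and the replicate 3 peak was not.

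The MRN subunit gene nbs (FBgn0261530, 3L, 9720414 to 9723194, minus strand) had an IDR peak of ordinary height at 9723082 to 9723481, with a signal of 223 and rank 3336. Its summit lay 88 bp upstream of the nbs TSS and 141 bp from that of defl, an Integrator complex subunit gene in the opposite orientation. Replicate 4 gave a signal of 165 and rank 3001, with the summit 89 bp upstream. Replicate 3 split the region into a summit 8 bp upstream of nbs (signal 77.3, rank 4258) and another 7 bp from the defl TSS (signal 43.1, rank 9468). Both replicates had a peak here, but only replicate 4 had a single summit in the middle of the interval.

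Both effector kinase genes had IDR peaks that were among the best 5654 of replicate 4 but not of replicate 3. The Chk2 gene lok (FBgn0019686, 2L, 20061422 to 20064381, plus strand) had a signal of 198 and rank 3863, the lowest of the 8. Its summit was in an intron of barr, a condensin subunit gene that runs the other way, 193 bp from the nearest barr TSS. It lay 245 bp upstream of the first of 2 lok TSSs (20061422), and the second is at 20061497. Its rank was 3386 in replicate 4 (signal 148) and 6063 in replicate 3 (signal 60.7), and the summits of the 2 replicates were 121 bp apart. A second pooled summit, 42 bp upstream of the first lok TSS and 10 bp from a barr TSS, had a signal of 88.3 and rank 9987. The start sites of barr and lok nearest to each other are 52 bp apart, and the weaker summit was the one between them.

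The Chk1 gene grp (FBgn0261278, 2L, 16680054 to 16699926, plus strand) has 3 TSSs, and they differed in their peaks. The IDR promoter summit lay 357 bp upstream of the second TSS (16685390, the start of 1 of 5 transcripts), in an intron of the longer transcripts, with a signal of 219 and rank 3395. Replicate 4 had it at rank 3030 (signal 164) and replicate 3 at rank 6087 (signal 60.5). With the promoter window narrowed to 250 bp, grp no longer counted as having an IDR promoter peak. The first TSS is shared with squ, a piRNA pathway gene. The pooled summit near it, at rank 6164 (signal 136), was 447 bp downstream and 69 bp from a second TSS of squ. The replicates differed there. Replicate 4 had a summit 426 bp downstream (signal 91.1, rank 5929), and replicate 3 had weak ones 77 and 334 bp downstream (ranks 16623 and 14907). At the third TSS, the start of the shortest transcript, the pooled summit had a signal of only 31.1 (rank 28124).

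The p53 gene (FBgn0039044, 3R, 23049657 to 23054082, minus strand) had its IDR peak at the outermost of its 3 TSSs. The summit at 23054102 was 20 bp upstream of that TSS, which begins 2 of the 4 annotated transcripts, and no other gene's TSS lay within 500 bp. The signal was 262 (rank 2746). The replicates placed the summit 1 bp apart, with a signal of 105 and rank 2664 in replicate 3 and 144 and rank 3485 in replicate 4. It was the only one of the 8 peaks that ranked higher in replicate 3. At the second TSS there was a weak summit 150 bp inside the transcript in the pooled list (signal 39.9, rank 22036) and one in replicate 3 (signal 40.1, rank 10347), but none in replicate 4. No summit lay within 500 bp of the innermost TSS in any list. The long antisense transcript asRNA:CR46089 overlaps the outer summit.

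The Ku subunit gene Irbp (FBgn0011774, 3R, 11410047 to 11412440, plus strand) had the highest peak of the 10 genes. The signal was 1215 at 11409772 to 11410139, rank 376, with a signal of 339 and rank 516 in replicate 3 and 884 and rank 317 in replicate 4. Among the IDR promoter peaks it stood at position 307 of 3619. The summit was 102 bp upstream of Irbp and 70 bp from the TSS of mgr, a prefoldin subunit gene that starts 172 bp away in the opposite direction. In replicate 3 the summit shifted to 80 bp from Irbp, which made Irbp the nearer gene in that list.

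The recombination genes fell into a pair with IDR peaks and 1 without. Brca2 (FBgn0050169, 2R, 24526172 to 24529581, plus strand), whose product is a mediator of recombinational repair, had a signal of 284 and rank 2500. Ranks were close in replicate 3 (2674, signal 104) and replicate 4 (2444, signal 195). Its summit lay in the 83 bp between the start sites of Brca2 and CG4612, 44 bp from the first and 39 bp from the second. The gene spn-B, which serves the repair of meiotic breaks in the oocyte (FBgn0003480, 3R, 14328051 to 14329608, plus strand) had a signal of 267 and rank 2693. It had no partner, and the summit was 119 bp upstream of its own TSS, where replicate 4 also placed it (signal 191, rank 2518). The replicate 3 summit was 203 bp upstream (signal 84.7, rank 3712).

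The Rad54 gene okr (FBgn0002989, 2L, 2989594 to 2992759, minus strand) came close to the IDR list. Its pooled peak had a signal of 140 and rank 5940, while the lowest signal in the IDR list was 146. That summit was 121 bp upstream of okr and 10 bp from a TSS of CG3558, in the 5′ UTR of that gene. Replicate 4 placed it 122 bp upstream with a signal of 111 and rank 4761, within the best 5654. Replicate 3 had no summit there: its only one in the window was 308 bp upstream, with a signal of 37.6 and rank 11157. A second pooled summit lay 334 bp upstream (signal 107, rank 8089).

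**Figure D2:**
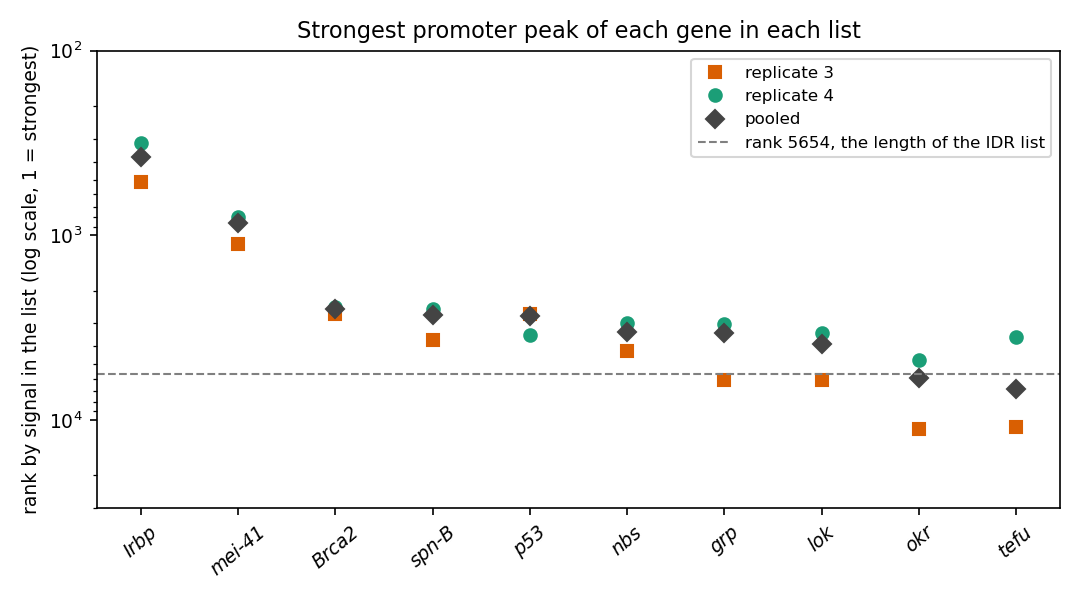
Rank by signal (log scale, 1 for the strongest) of the strongest promoter peak of each gene in the pooled list and in each replicate list; the dashed line is rank 5654, the length of the IDR list. All 10 replicate 4 points lie above the line, and 6 of the 10 replicate 3 points do, with lok, grp, okr and tefu under it.

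The replicates therefore gave different counts. Among the 5654 best peaks of replicate 4, all 10 genes had a promoter peak, against 30.5% of protein-coding genes. Among those of replicate 3, 6 of 10 did, against 29.4%: mei-41, nbs, p53, Irbp, spn-B and Brca2. For the 8 IDR promoter peaks, replicates were called different where a list had no summit within 100 bp, where the peak was among the 5654 best of only 1 list, or where the ranks differed by more than 3 times. This held for 2 of the 8 (lok and grp) and for 33.7% of all IDR promoter peaks, a share that the 8 peaks did not exceed. Both lok and grp were among the best of replicate 4 alone, as were 19.9% of all 3619. Another 400 of the 3619 were among the best of replicate 3 alone. At least 1 list had no summit within 100 bp for 300 of the 3619, and for 0 of the 8. The peak ranked higher in replicate 4 for 7 of the 8, and for 53.5% of the 3319 IDR promoter peaks found in both lists. The larger of the 2 ranks was a median of 1.45 times the smaller for the 8 peaks and 1.48 times for all. Replicate summits were a median of 56.5 bp apart for the 8 and 27 bp for all.

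**Figure D3:**
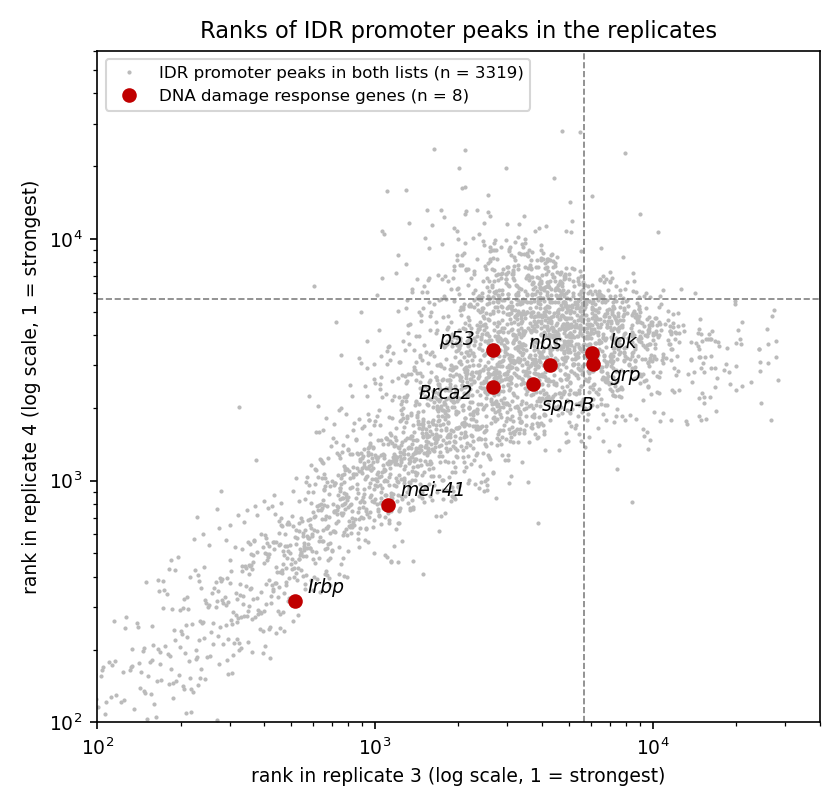
Rank in replicate 3 against rank in replicate 4 (both log scale, 1 for the strongest) of the IDR promoter peaks found in both lists, with the 8 DNA damage response peaks in red; dashed lines mark rank 5654. The axes start at rank 100, which leaves out 102 of the 3319 peaks, none of them red. Only lok and grp lie beyond the line for replicate 3, and none of the 8 lies beyond the line for replicate 4.

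Inside the gene bodies peaks were rare. Only grp had an IDR summit within its span and more than 500 bp from its own TSSs, 1 of 10 genes against 8.4% of protein-coding genes. It lay at 16684356 in an intron, with a signal of 245 and rank 2992, and 348 bp from the TSS of CG31807, a gene within grp on the other strand. Replicate 4 had the same summit at rank 2694 (signal 180), and replicate 3 had one at 16684447 and rank 6648 (signal 56.6), outside its best 5654. The 8 other pooled summits in the grp body had signals of 32.1 to 84.2 and −log10 q values of 0.756 to 3.84. No other gene of the 10 had a pooled summit in its body. Single weak summits appeared in 1 replicate only: in replicate 3 in a coding exon of Irbp (rank 28179), an intron of lok (rank 21638) and a 3′ UTR shared by spn-B and NK7.1 (rank 12542), and in replicate 4 in an intron of p53 that holds a coding exon of Gr94a (rank 29258).

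The summits ranged widely in GC content, and the pair of strongest peaks was at the low end together with spn-B and nbs, whose signals were ordinary. In the 101 bp around the summit the GC content was 18.8% at Irbp, 20.8% at spn-B and 21.8% at both mei-41 and nbs. It was 28.7% at grp, 36.6% at lok, 42.6% at p53 and 51.5% at Brca2. The median over all IDR promoter summits was 34.7%, and 5.03% of them were as low as Irbp. At the other end, 92.7% of promoter summits had a GC content no higher than that of Brca2.

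Of 6 short words searched on both strands, few occurred at these summits, and each was found at 21.0% or fewer of all IDR promoter summits. TATCGATA, the DRE bound by the transcription factor Dref, reads the same on both strands and was present in 2 copies at p53, at 23054132 to 23054139 and at 23054143 to 23054150, both upstream of the outer TSS and without overlap. At least 1 DRE was found at 4.01% of all IDR promoter summits and 2 or more at 7 of the 3619. TATAAA was present at Irbp (2 copies, at 11409909 to 11409914 and 11409946 to 11409951) and spn-B (14327885 to 14327890), and at 21.0% of all. The TSSs of Irbp and spn-B are at 11410047 and 14328051. Whether these copies act as TATA boxes was not tested. None of the 8 windows held CAACCCTG, the word that ranked first in an earlier analysis of these data (2.90% of all), or GGTCACAC, part of core promoter motif 1 (2.79%). The E-box word CAGCTG was also found at none of the 8 and at 5.64% of all promoter summits. The same was true of the word GAGAG, which the GAGA factor binds, found at 9.42% of all. No match says only that these letters are not in these windows, and no searched words overlapped at the 8 summits.

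Other genes of the DNA damage response carried IDR promoter peaks as well. Of 65 further genes in 11 roles, 34 had an IDR promoter peak (52.3%, against 30.7% of protein-coding genes), 24 had only a pooled promoter peak and 7 had neither. The peaks of the 34 had a median signal of 274. By the same rule 12 of the 34 differed between replicates, close to the 33.7% of all IDR promoter peaks. The share was 28 of 49 for genes with another gene's TSS within 1000 bp and 6 of 16 for the rest, against 45.8% and 16.6% of the protein-coding genes with and without such a neighbour. Among the 5654 best peaks of replicate 4, 31 of 65 had a promoter peak, against 30.5% of protein-coding genes. Among those of replicate 3, 24 of 65 did, against 29.4%.

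By role, nucleotide excision repair had 6 of 8 genes with an IDR promoter peak, led by the endonuclease subunit gene Ercc1 (signal 780, shared with SMC2) and the helicase gene Xpd (429, shared with LSm1). Translesion synthesis and photolyases had 5 of 7, with the polymerase gene Rev1 (1354, shared with MED30) and the photolyase gene phr6-4 (718, shared with CG2608) highest. Homologous recombination had 7 of 11. The highest peak of all 65 genes was at mus312, a scaffold for structure-specific nucleases, with a signal of 2961 and rank 60, in a window that also holds starts of CG42307 and mrva. The next in that role was mms4, a subunit of the Mus81 nuclease (270). The mus312 peak had rank 65 in each replicate.

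Base excision and single-strand break repair had 4 of 6, with the endonuclease gene Rrp1 (624, shared with gammaTub23C) and the glycosylase gene Ogg1 (352, shared with Ppt1). The p53 targets and apoptosis genes had 3 of 5, with the cell death gene hid (697) and Corp, a negative regulator of p53 (467), neither of which has a partner, while rpr and skl had only pooled peaks. Mismatch repair had 2 of 4, the MutS homologues spel1 (289) and Msh6 (278, shared with Prp31). Checkpoint sensors and mediators had 4 of 10, with mu2, a mediator at damage foci (1370, shared with Cnb), and Rad9, a subunit of the checkpoint clamp (256, shared with Uggt). The roles with the fewest were single-strand DNA binding, 1 of 3 (RPA1, 354, shared with Mcm2), the Fanconi anaemia pathway, 1 of 4 (Fancm, 216), cell cycle targets, 1 of 4 (Wee1, a kinase that restrains mitotic entry, 150), and end joining, 0 of 3. Ku80, the partner subunit of Irbp in the Ku heterodimer, had only a pooled peak, as did DNAlig4 and PolQ. For Msh6 and the resolvase gene Gen (160, shared with Srp54k) replicate 3 had no summit within 100 bp of the IDR summit.

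**Figure D4:**
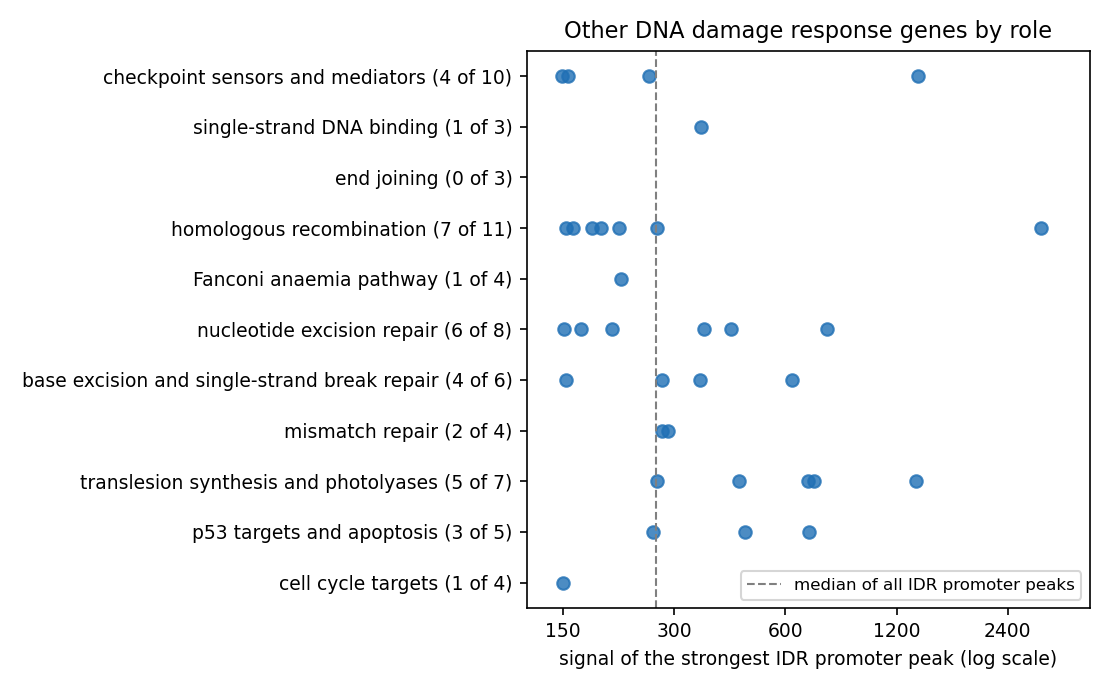
Signal (log scale, authors' units) of the strongest IDR promoter peak of each of the 34 further DNA damage response genes that had one, by role, with the number of genes with a peak out of those in the role; the dashed line is the median of all IDR promoter peaks, 268. The mus312 peak stands far to the right at 2961, and end joining has no point.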

How the data were processed

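Peaks came from 4 deposited narrowPeak lists in dm6, per the labels and the deposited text records: 1 per replicate, each called against a control alignment, 1 on both replicates pooled, and 1 derived from these by IDR. Which aligner, peak caller and IDR threshold were used is not stated in these sources, and the control was not analysed here. The signal is the authors' deposited value per peak, of unstated scale. All 5654 IDR peaks have the same deposited −log10 q value, 4.15, so q ranks none of them. It served 1 alternative and is given for some weak pooled peaks. The summit is the start plus the deposited offset. Depth is unknown, and with 2 samples no error is given beyond the value in each.

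Genes and 23998 TSSs on 6 chromosome arms came from the Ensembl annotation of BDGP6 (the dm6 coordinates), without transposable elements. Of the 65 further genes, 6 were matched through RefSeq synonyms. Distances, ranks and exact word matches were computed with Python 3.11.15, pandas 2.3.3 and NumPy 2.4.6, and distances were checked on simulated summits. The genes, lists and words were chosen with earlier results of these data known, so nothing was tested. All 10 genes are named. Of the further genes, the 2 of highest signal per role and any absent from a replicate at the IDR summit are named, while Ku80, DNAlig4, PolQ, rpr and skl were named after their values were seen. Alternatives covered the window, the list, the replicate, the nearest TSS, coding transcripts, overlap, the rank ratio and the word window.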

Additional observations from a re-analysis of the deposited data

How the results depend on the processing

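Of the 10 genes, 8 had an IDR promoter peak. This became 5 with only the 2827 strongest IDR peaks (lok, grp and nbs lost) and 4 where the nearest TSS had to be the gene's own, settings under which 17.8% and 22.7% of protein-coding genes had one. With 1 replicate it ranged from 6 to 10, and from 24 to 31 for the 65 further genes. The count of 34 for the 65 further genes became 58 with all pooled peaks, against 60.9% of protein-coding genes. It became 20 with those 2827 peaks and 19 with the own TSS nearest. Windows of 250 and 1000 bp gave 7 and 8 of the 10 genes, against 26.4% and 34.2% of protein-coding genes. Pooled peaks at the maximum q, an alternative chosen after seeing the data, gave all 10, against 35.3%. The 1 gene with a body peak, grp, ranged from 0 to 1 with 1 replicate. The same 2 genes, lok and grp, differed between replicates at rank ratios of 2 and 5 and within 200 bp. Both were called different because their peaks were among the best of replicate 4 alone, a cutoff that these settings did not vary. The settings therefore could not remove lok or grp, and say nothing on how firm those calls are. A rank ratio of 2 could have added other genes to lok and grp, but did not. With 100 bp around the summit TATAAA was found at 4 of 8 summits, GAGAG at 2 and CAGCTG at 1. With 25 bp TATAAA was at 1 and TATCGATA at 0. The shares of all promoter summits were taken with 50 bp only, so the counts at 100 and 25 bp cannot be set against them. No paired analysis was possible because the series has a single group. Peak lists without read counts cannot tell absence of binding from low depth, and shared promoters cannot be split between partners.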
